A study of Mus musculus with 15 samples.

Results

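The 42 genes described here are interferon-stimulated genes, a set whose transcripts are known to be induced when a cell senses interferon. They were chosen by symbol as well-known members of that response, and a gene counted as measured where a probe set of the array was annotated to it alone. Of the 42 genes, 37 were measured, among 19938 measured genes in all. Isg15 shared its probe set with Gm9706, Ifi47 with Olfr56, Igtp with Irgm2 and Gbp2 with Gbp2b, so these 4 genes are not analysed here. Ifi44 was paired with no probe set in the annotation used and is not analysed here.

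Type I interferon binds the receptor made of Ifnar1 and Ifnar2, and interferon gamma binds the receptor made of Ifngr1 and Ifngr2. Both receptors signal through Janus kinases and STAT proteins: type I interferon forms a complex that holds Stat2 and Irf9 and binds the interferon-stimulated response element, while the signal of interferon gamma acts mainly through the gamma-activated site. The induced genes encode RNA sensors, enzymes and binding proteins that limit viruses, GTPases that act on intracellular pathogens, and proteins that supply peptides to MHC class I.

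The arrays measured RNA from germinal centre (GC) B cells, which divide and mutate their receptors in the dark zone (DZ) and are selected by antigen and T cell help in the light zone (LZ). Donor SwHEL B cells, which carry a knocked-in receptor for hen egg lysozyme and the congenic marker CD45.1, were placed in C57BL/6J recipients with CD45.2. The recipients received sheep red blood cells coupled to HEL3x, a mutant lysozyme, and on day 10 donor GC B cells (IgG1+, CD38 low) were sorted from the spleens of female mice. LZ cells were gated as CD86 high and CXCR4 low, DZ cells as CXCR4 high and CD86 low, and the cells of either zone were parted by their affinity for the antigen. Lzhi names the 3 arrays of LZ cells with high affinity, Lzlo the 4 of LZ cells with low affinity, Dzhi the 4 of DZ cells with high affinity and Dzlo the 4 of DZ cells with low affinity. All groups share the SwHEL receptor, the antigen and the day, so they hold no unimmunized cells and no cells treated with interferon. The labels do not say whether the arrays of a group came from separate mice or from pools, so p-values measure the spread between these arrays, which may be technical.

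The sample descriptions carry experiment codes, called A, B, C and D below. Each group had 1 array from A, B and C, and D had 1 array of Lzlo, Dzhi and Dzlo and none of Lzhi. Values are log2 intensities after RMA, which corrects background, normalizes and summarises the probes of a probe set. A difference of 1 is thus a doubling of signal, a scale that understates the change of dim genes. Array medians lay between 5.57 and 5.74, and pairs of arrays correlated at 0.94 to 0.993 over all genes. All 7 measured B cell markers and all 7 measured GC B cell markers lay above the median gene in every group. Array means of the B cell markers were 10.2 to 10.4 in Lzhi, 10.4 to 10.5 in Lzlo, 10.0 to 10.4 in Dzhi and 10.2 to 10.6 in Dzlo. The arrays Lzlo D and Dzlo D, named by group and experiment, stood apart: neutrophil markers averaged 9.40 in Lzlo D and 7.88 in Dzlo D, against 4.96 to 6.68 in the other 13 arrays. Results that turn on these arrays are also given without them, where experiment D keeps only its Dzhi array.

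The response element was present upstream of a part of the genes. The 250 bases before each listed start were searched on both strands for GAAANNGAAA, the core of the interferon-stimulated response element, which reads TTTCNNTTTC on the other strand. It was found in 9 of the 28 measured genes that have an entry in the RefSeq promoter table of build GRCm38.p6, a share of 32.1%, against 3.46% of all 27025 genes there. A gene with several listed starts counted where any of them matched, with 35 starts for the 28 genes and 32851 for all 27025. The 9 genes were Bst2, Gbp3, Ifit1, Ifit3, Irgm1, Oas3, Rsad2, Stat2 and Trim30a. TTCNNNGAA, the core of the gamma-activated site, was found in 6 of the 28 (21.4%), namely Bst2, Eif2ak2, Ifit2, Irf1, Isg20 and Psmb8, against 8.13% of all genes. The 6 windows below are those of the genes with the response element and the widest range over the arrays. Each runs 5′ to 3′ along the gene's own strand, with the motif and its overlapping repeats in capitals. A match is a description of the letters and not a measured binding site.

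Ifit3, chr19:34583353-34583436, plus strand: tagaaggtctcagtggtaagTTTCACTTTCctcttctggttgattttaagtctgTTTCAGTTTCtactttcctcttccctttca
Trim30a, chr7:104465200-104465249, minus strand: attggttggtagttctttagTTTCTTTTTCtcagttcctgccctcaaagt
Irgm1, chr11:48871421-48871470, minus strand: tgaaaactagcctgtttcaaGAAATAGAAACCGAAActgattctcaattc
Bst2, chr8:71537567-71537622, minus strand: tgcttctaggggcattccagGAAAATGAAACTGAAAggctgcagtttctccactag
Stat2, chr10:128270256-128270305, plus strand: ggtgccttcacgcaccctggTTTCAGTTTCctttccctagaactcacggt
Gbp3, chr3:142559979-142560034, plus strand: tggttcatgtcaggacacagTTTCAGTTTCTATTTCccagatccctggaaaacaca

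Ifit3 holds 2 separate copies, the first beginning 156 and the second 122 bases before the listed start. The Irgm1, Bst2 and Gbp3 windows each hold 2 overlapping copies. The listed starts of Ifit3 and Gbp3 lie inside the annotated genes. The Ifit3 window lies wholly inside, as that gene begins at 34583119. Bst2, which encodes tetherin, is the 1 measured gene with both motifs. Irgm1 has the copies nearest the start, the first beginning 30 and the second 24 bases upstream, and Stat2 the farthest of these 6, at 222 bases. Several members are neighbours in the genome: Ifit1, Ifit2 and Ifit3 lie together, as do Oas2 and Oas3, Oasl1 and Oasl2, Parp9, Parp14 and Dtx3l, and Psmb9, Tap1 and Psmb8.

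Between zones, between affinities and in their interaction, none of the 37 genes passed the test at an adjusted p under 0.05 (limma over all 19938 genes, Benjamini-Hochberg). Of all genes, 0.155% passed between zones over both affinities, 0.015% between zones in high affinity and 0.01% between zones in low affinity. The share was 0% of all genes for each of the comparisons by affinity and for the interaction. With 3 and 4 arrays a group, the number of arrays limits the precision, so each difference is given with its standard error. Bulk arrays cannot tell fewer cells of a type from less RNA per cell, in these and all later results.

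At an unadjusted p under 0.05 the members gave 2 genes between zones over both affinities, where 4.38% of all genes did so. They gave 1 gene in high affinity, where the background was 2.8%, and 2 in low affinity, where it was 3.53%. For affinity they gave 5 genes in the LZ, all lower in Lzhi, against a background of 4%, and 1 in the DZ, against 1.6%. Over both zones 6 members were under that limit, where 4.3% of all genes were. Of these 6, 5 were lower in high affinity and 1, Eif2ak2, was higher, at a difference of 0.51. In the interaction 0 members were under it, where 1.33% of all genes were. With all arrays in the fit, the members' count was furthest from its background for affinity in the LZ and over both zones. These 2 comparisons share the LZ arrays and are not independent. Lzlo D held the highest value of 13 members and Lzhi C the lowest of 13, so these counts may rest on few arrays. In the LZ, Lzhi minus Lzlo of Irf7 was -0.27 in experiment A, 0.05 in B and -1.39 in C. That of Trim30a was -0.15, -0.53 and -1.73 in the same order. Ifit3, Zbp1 and Oasl2 stayed under the limit in the LZ without Lzlo D and Dzlo D.

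The median difference of the 37 genes between Lzhi and Lzlo was -0.23, with 9 genes above 0 and 28 below it, while the median over all genes was within 0.01 of 0. Within experiments the median was -0.08 in A, -0.05 in B and -0.34 in C, with 24, 23 and 26 genes below 0. Over all genes the medians were -0.001 in A, -0.006 in B and 0.10 in C. Without Lzlo D and Dzlo D the median was -0.17, and without the Lzhi array of experiment C it was -0.15. In the DZ the median of Dzhi minus Dzlo was -0.01, with 16 genes above 0 and 21 below. Between zones it was -0.10 for Lzhi minus Dzhi and 0.12 for Lzlo minus Dzlo. The value for high affinity rests on 1 array, since it was 0.01 without the Lzhi array of experiment C. Over both affinities LZ minus DZ had a median of 0.03, and -0.01 without the Lzlo array of experiment D. Over both zones the median for affinity was -0.14, and -0.07 without that same array.

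**Figure D1:**
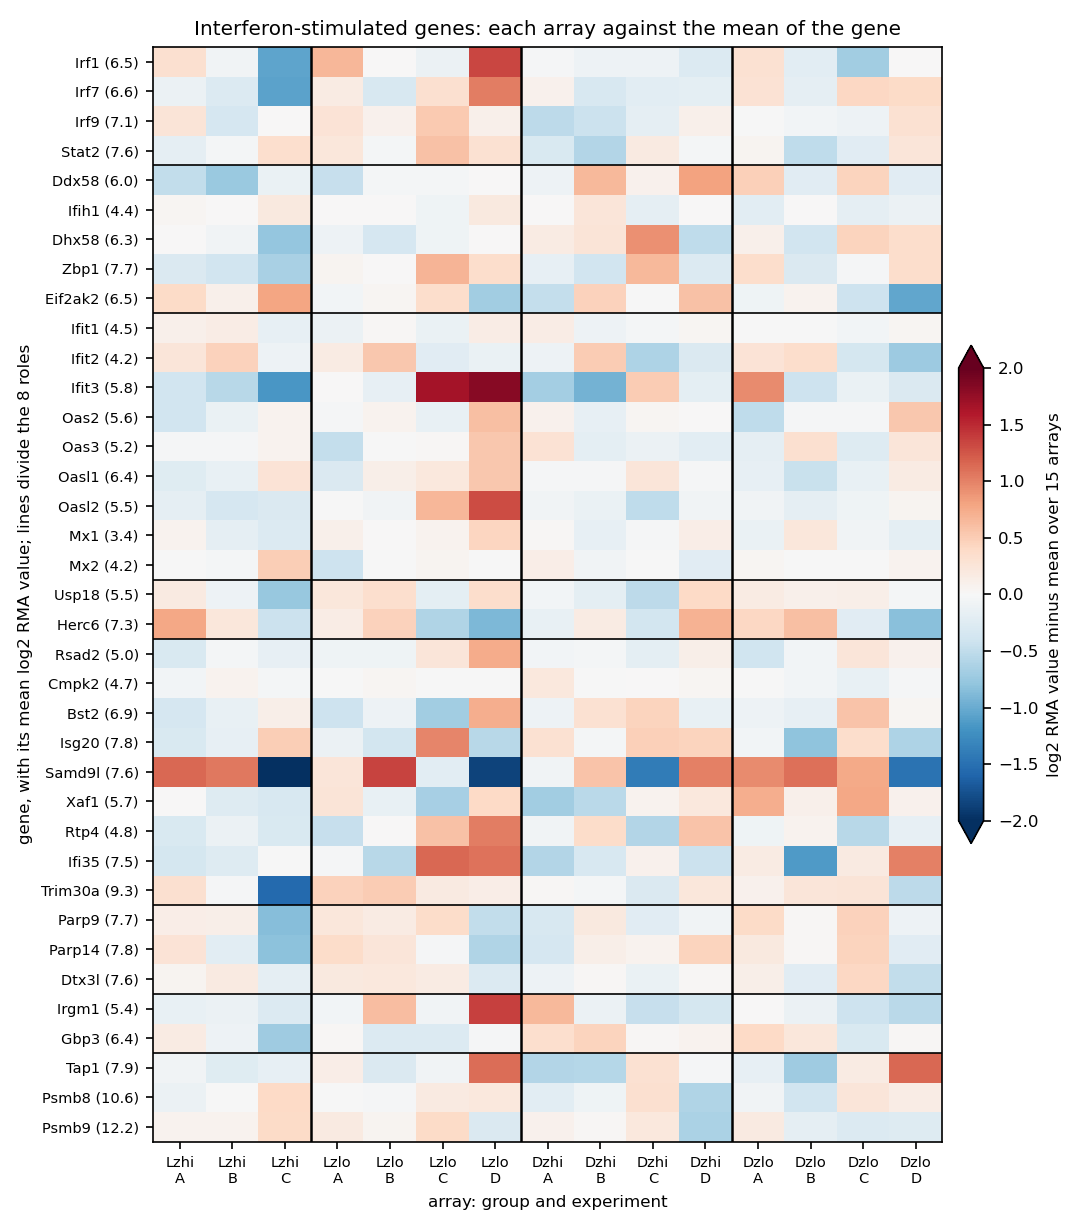
Each column is an array, ordered Lzhi, Lzlo, Dzhi and Dzlo and by experiment within a group, and each row is 1 of the 37 measured genes, with its mean in brackets and lines between the 8 roles. Colour gives the log2 RMA value minus the mean of the gene over 15 arrays, red above and blue below, with colours ending at 2 on either side: Lzlo D holds the highest value of 13 genes and Lzhi C the lowest of 13.

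Single arrays held many of the extreme values. The Lzlo array of experiment D held the highest value of 13 of the 37 genes, and its genes lay at a median of 0.22 above their own means. The Lzhi array of experiment C held the lowest value of 13 genes, with a median of -0.17. The medians of the other 13 arrays lay between -0.10 and 0.05. Lzlo D is also the array with the highest neutrophil, T cell and NK cell markers, whose levels are given further on.

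The 4 transcription factor genes of the response had a mean signal above that of the median gene. Irf7, which drives the late wave of type I interferon and is itself induced, had 6.51, 6.35 and 5.55 in Lzhi arrays of experiments A, B and C, against 6.78, 6.30, 6.94 and 7.64 in Lzlo arrays of A, B, C and D. In the DZ Irf7 had 6.70, 6.29, 6.41 and 6.41 in Dzhi arrays of A to D, against 6.91, 6.43, 7.04 and 7.0 in Dzlo arrays. The groups overlapped in both zones, and the high-affinity array was the lower in 6 of the 7 pairs of the same zone and experiment. Over both zones the difference of high minus low affinity was -0.58 ± 0.19 (SE), with an unadjusted p of 0.00941 and an adjusted p of 0.999 (limma). Without Lzlo D and Dzlo D it was -0.44 (unadjusted p = 0.0276, adjusted p = 0.998).

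Irf1, an early target of interferon gamma and an activator of MHC class I genes, averaged 6.28 ± 0.70 in Lzhi (SD, n = 3), 7.02 ± 0.67 in Lzlo, 6.42 ± 0.10 in Dzhi and 6.40 ± 0.42 in Dzlo (SD, n = 4 each). Its range of 2.39 over the arrays comes from Lzlo D at 7.89 and Lzhi C at 5.50, with the other 13 arrays between 5.86 and 7.22. Irf9, the DNA-binding subunit of the type I complex, had 7.37, 6.78 and 7.12 in Lzhi arrays of A, B and C, against 7.39, 7.19, 7.64 and 7.21 in Lzlo arrays of A to D. In the DZ its arrays of A to D had 6.59, 6.68, 6.94 and 7.21 in Dzhi, against 7.10, 7.05, 7.01 and 7.41 in Dzlo. The groups overlapped, yet the high-affinity array was the lower in all 7 pairs, at a difference over both zones of -0.28 ± 0.12 (SE, adjusted p = 0.999, limma).

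Stat2, the partner of Irf9 in the type I complex, had 7.44, 7.59 and 7.95 in Lzhi arrays of A, B and C, against 7.32, 7.03, 7.80 and 7.59 in Dzhi arrays of A to D. In low affinity the arrays of A to D had 7.84, 7.59, 8.21 and 7.93 in Lzlo, against 7.67, 7.11, 7.39 and 7.86 in Dzlo. The LZ array was the higher in 7 of 7 pairs, while the groups overlapped. The difference of LZ minus DZ was 0.31 ± 0.15 (SE, adjusted p = 1, limma), and with the experiment as a replicate block the adjusted p was 0.381.

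Among the sensors of foreign nucleic acid, Ddx58, which encodes the RNA helicase RIG-I, had the lowest p between zones of any member. It had 5.50, 5.23 and 5.85 in Lzhi arrays of A, B and C, against 5.88, 6.63, 6.08 and 6.78 in Dzhi arrays of A to D. In low affinity it had 5.52, 5.94, 5.94 and 5.99 in Lzlo arrays of A to D, against 6.45, 5.76, 6.43 and 5.76 in Dzlo arrays. The high-affinity groups did not overlap, their nearest arrays being Lzhi C and Dzhi A, and the low-affinity groups did. Ddx58 was the 1 member whose Lzhi and Dzhi arrays did not overlap, where this held for 3.69% of all genes. The difference was -0.81 ± 0.25 in high affinity (SE, unadjusted p = 0.00623, adjusted p = 0.999) and -0.53 ± 0.17 over both affinities (unadjusted p = 0.00807, adjusted p = 0.583, limma). Without Lzlo D and Dzlo D it was -0.61 over both affinities, with an adjusted p of 0.424.

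Dhx58, which encodes LGP2, a regulator of RIG-I, differed by -0.49 ± 0.29 between Lzhi and Dzhi (SE, adjusted p = 0.999, limma), and by -0.24 without Lzhi C. Ifih1, which encodes MDA5, another RNA helicase of the family, ranged over only 0.46 in the 15 arrays, at a mean of 4.41. Eif2ak2 encodes PKR, the kinase that stops translation on double-stranded RNA. It averaged 6.95 ± 0.34 in Lzhi (n = 3), 6.43 ± 0.44 in Lzlo, 6.67 ± 0.48 in Dzhi and 6.16 ± 0.49 in Dzlo (SD, n = 4 each). High minus low affinity was 0.51 ± 0.29 in the DZ (SE, adjusted p = 1, limma), and 0.28 without Lzlo D and Dzlo D.

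Zbp1, a sensor of Z-form nucleic acid that can start necroptosis, had 7.40, 7.31 and 7.05 in Lzhi arrays of A, B and C, against 7.75, 7.70, 8.37 and 8.04 in Lzlo arrays of A to D. In the DZ it had 7.53, 7.32, 8.35 and 7.43 in Dzhi arrays of A to D, against 8.05, 7.40, 7.67 and 8.05 in Dzlo arrays. The LZ groups did not overlap, and the DZ groups did. Lzhi minus Lzlo was -0.71 ± 0.25 (SE, unadjusted p = 0.0124, adjusted p = 1, limma), and -0.69 without Lzlo D and Dzlo D. Zbp1 was thus below the unadjusted limit with and without them, at an unadjusted p of 0.0272 and an adjusted p of 1 without them (limma).

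Of the IFIT, OAS and MX families, 9 genes were measured, and Ifit3 had the widest range among these 9, at 2.99. Ifit3, known in human cells to stabilise IFIT1 on viral RNA, had 5.42, 5.26 and 4.64 in Lzhi arrays of A, B and C, against 5.81, 5.64, 7.48 and 7.63 in Lzlo arrays of A to D. In the DZ it had 5.12, 4.86, 6.31 and 5.62 in Dzhi arrays of A to D, against 6.75, 5.40, 5.67 and 5.52 in Dzlo arrays. The LZ groups did not overlap, and Lzlo C and D lay above the 4.64 to 6.75 of the other 13 arrays. The mean was 5.11 ± 0.41 in Lzhi (SD, n = 3) and 6.64 ± 1.06 in Lzlo (SD, n = 4).

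The Ifit3 difference of Lzhi minus Lzlo was -1.53 ± 0.51 (SE), with an unadjusted p of 0.00991 and an adjusted p of 1 (limma). Without Lzlo D and Dzlo D it was -1.20 (unadjusted p = 0.0376, adjusted p = 1). Its neighbours did not share that pattern of values: Ifit1 ranged over only 0.31 and Ifit2 was highest in experiment B in each group. Both were dim, at means of 4.53 for Ifit1 and 4.17 for Ifit2, below the lower quartile of 4.70, against 5.81 for Ifit3. At such signal the lack of a like pattern cannot be read as a difference between the genes. The members whose Lzhi and Lzlo arrays did not overlap were Ifit3, Zbp1, Oasl2 and Irgm1, all lower in Lzhi, where 4.55% of all genes did not overlap in that comparison.

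Oasl2, a member of the oligoadenylate synthetase family, had 5.30, 5.15 and 5.19 in Lzhi arrays of A, B and C, against 5.47, 5.40, 6.14 and 6.78 in Lzlo arrays of A to D. Its Dzhi arrays of A to D had 5.40, 5.35, 4.98 and 5.40, against 5.40, 5.29, 5.39 and 5.54 in Dzlo arrays. Only Lzlo C and D lay above 5.54. Lzhi minus Lzlo was -0.73 ± 0.26 (SE, unadjusted p = 0.0131, adjusted p = 1, limma), and -0.46 without Lzlo D and Dzlo D (unadjusted p = 0.0291, adjusted p = 1). Between zones in low affinity Oasl2 differed by 0.54 ± 0.24 (SE, adjusted p = 1) and by 0.31 without those arrays.

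The other OAS and MX genes varied less. Oas2, Oas3 and Oasl1, the last known in mice to hold back the translation of Irf7, ranged over 1.11, 1.02 and 0.99. Mx2 ranged over 0.91 and Mx1 over 0.70. Mx1, the antiviral GTPase whose gene is disrupted in most laboratory strains, had the lowest mean signal of the members at 3.43, and Psmb9 the highest at 12.2. Such means also depend on the probes and do not rank the transcripts. By mean signal 23 of the 37 genes lay above the median gene, at 5.78, and 5 at or below the lower quartile, at 4.70.

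**Figure D2:**
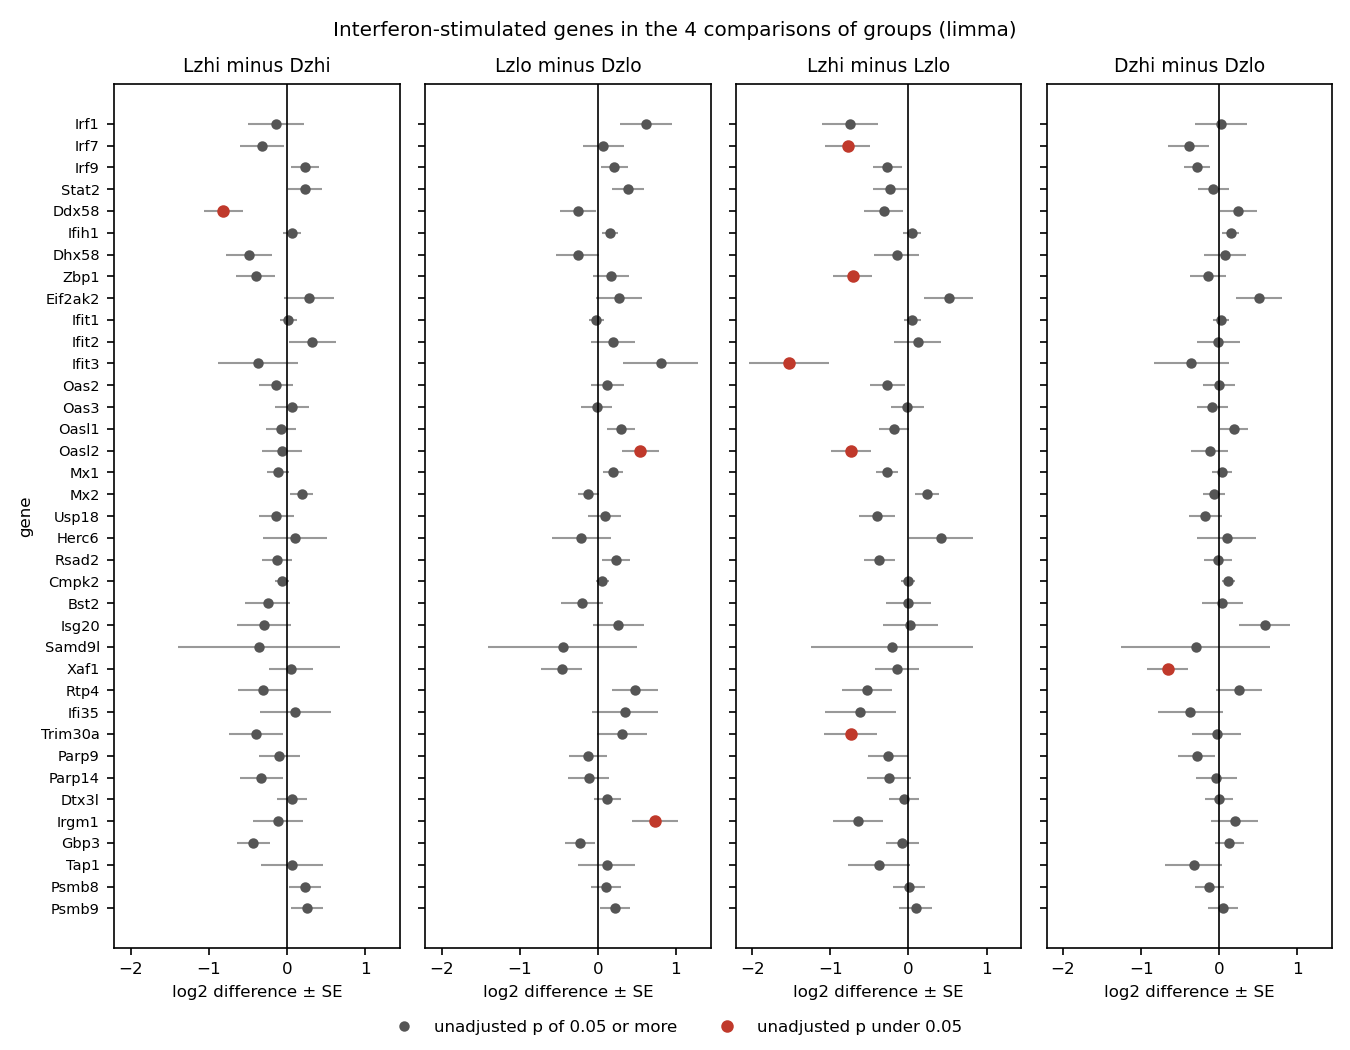
Log2 differences with their standard errors (limma) are drawn for the 37 genes, grouped by role from top to bottom, in 4 comparisons: Lzhi minus Dzhi, Lzlo minus Dzlo, Lzhi minus Lzlo and Dzhi minus Dzlo. Red points had an unadjusted p under 0.05, and none passed after adjustment. In Lzhi minus Lzlo, 28 of the points lie left of 0.

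In the ISG15 system, which attaches the ubiquitin-like Isg15 to proteins, Isg15 itself was not measured. Usp18, the protease that removes Isg15 and restrains the type I receptor, averaged 5.32 ± 0.48 in Lzhi (SD, n = 3), 5.73 ± 0.25 in Lzlo, 5.46 ± 0.38 in Dzhi and 5.64 ± 0.08 in Dzlo (SD, n = 4 each). The Usp18 groups overlapped, and high minus low affinity over both zones was -0.29 ± 0.16 (SE, adjusted p = 0.999, limma). Herc6, the ligase of the system in mice, ranged over 1.68.

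Among the other antiviral effectors, Samd9l, a growth-restraining antiviral factor, had the widest range of all members, at 4.53. It had 8.75, 8.65 and 4.42 in Lzhi arrays of A, B and C, against 7.84, 8.95, 7.40 and 5.76 in Lzlo arrays of A to D. In the DZ it had 7.54, 8.18, 6.21 and 8.61 in Dzhi arrays of A to D, against 8.55, 8.70, 8.37 and 6.13 in Dzlo arrays. The low values were those of Lzhi C, Lzlo D, Dzlo D and Dzhi C, with the other 11 arrays between 7.40 and 8.95. The spread within groups, up to an SD of 2.47 in Lzhi (n = 3), was larger than any difference between group means, and no comparison reached an unadjusted p under 0.05 (limma). Its range was wider than that of 99.7% of all genes.

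Xaf1, a proapoptotic factor that binds the caspase inhibitor XIAP, had 5.02, 5.17, 5.78 and 5.93 in Dzhi arrays of A to D, against 6.44, 5.81, 6.50 and 5.80 in Dzlo arrays. In the LZ it had 5.72, 5.45 and 5.40 in Lzhi arrays of A, B and C, against 5.97, 5.57, 5.05 and 6.11 in Lzlo arrays of A to D. The DZ groups overlapped through the arrays of experiment D. Dzhi minus Dzlo was -0.66 ± 0.26 (SE, unadjusted p = 0.0253, adjusted p = 1, limma), and -0.77 without Lzlo D and Dzlo D.

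Isg20, an exonuclease that degrades viral RNA, had 8.11, 7.77, 8.28 and 8.24 in Dzhi arrays of A to D, against 7.75, 6.99, 8.15 and 7.19 in Dzlo arrays. In the LZ it had 7.50, 7.63 and 8.29 in Lzhi arrays of A, B and C, against 7.68, 7.43, 8.78 and 7.25 in Lzlo arrays of A to D. Dzhi was the higher in 4 of 4 experiments, although the groups overlapped, and Isg20 was highest in experiment C within each group. Dzhi minus Dzlo was 0.58 ± 0.32 (SE, adjusted p = 1, limma), and 0.47 without Lzlo D and Dzlo D.

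Ifi35, an interferon-induced leucine zipper protein, was high in 3 arrays, at 8.66 in Lzlo C, 8.59 in Lzlo D and 8.52 in Dzlo D, with the other 12 between 6.39 and 7.70. Trim30a, a ubiquitin ligase known in mice to dampen NF-kB signalling, had 9.66, 9.33 and 7.79 in Lzhi arrays of A, B and C, against 9.81, 9.86, 9.52 and 9.48 in Lzlo arrays of A to D. The LZ groups overlapped, and Lzhi C stood alone below the 8.81 to 9.86 of the other 14 arrays. With Lzhi C included, Lzhi minus Lzlo was -0.74 ± 0.34 (SE, unadjusted p = 0.0486, adjusted p = 1, limma). The group medians of Trim30a were closer, at 9.33 in Lzhi and 9.67 in Lzlo. Cmpk2, a mitochondrial nucleotide kinase next to Rsad2 in the genome, ranged over only 0.35. It was the 1 member whose groups did not overlap between Dzhi and Dzlo and the 1 between Lzlo and Dzlo, where 1.11% and 1.91% of all genes did so. The gaps were narrow: the lowest values were 4.7005 in Dzhi and 4.6958 in Lzlo, against a highest of 4.6956 in Dzlo. The differences of Cmpk2 were 0.12 ± 0.08 and 0.06 ± 0.08 (SE).

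Rtp4, a chaperone of membrane receptors that also limits viruses, averaged 4.52 ± 0.11 in Lzhi (SD, n = 3), 5.05 ± 0.65 in Lzlo, 4.83 ± 0.51 in Dzhi and 4.58 ± 0.27 in Dzlo (SD, n = 4 each). Its interaction term, the affinity difference in the LZ minus that in the DZ, was -0.79 ± 0.44 (SE, adjusted p = 1, limma), and the terms of Irgm1 and Oasl2 were -0.85 ± 0.44 and -0.61 ± 0.35. Without Lzlo D alone the terms were -0.54 for Rtp4, -0.54 for Irgm1 and -0.33 for Oasl2, and without Lzlo D and Dzlo D they were -0.55, -0.45 and -0.38 in the same order of genes. These were the members with the lowest p in the interaction. The median term over the 37 genes was -0.21, and -0.12 without the Lzhi array of experiment C. The PARP and DTX3L genes, which act together in interferon signalling and DNA repair, gave no member under an unadjusted p of 0.05 in any comparison between groups, and ranged over 0.90 to 1.32.

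Of the interferon-inducible GTPases, Irgm1 and Gbp3 were measured. Irgm1, which acts in autophagy and in defence against intracellular bacteria, had 5.22, 5.26 and 5.10 in Lzhi arrays of A, B and C, against 5.32, 5.99, 5.31 and 6.75 in Lzlo arrays of A to D. Its Dzhi arrays of A to D had 6.02, 5.26, 4.92 and 5.03, against 5.38, 5.26, 4.96 and 4.84 in Dzlo arrays. Lzlo D and Lzlo B were high in the LZ and Dzhi A in the DZ. Lzlo minus Dzlo was 0.73 ± 0.30 (SE, unadjusted p = 0.0285, adjusted p = 1, limma), and 0.34 without Lzlo D and Dzlo D, where the unadjusted p was 0.226 and the adjusted p 1.

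Gbp3, a guanylate-binding protein that gathers on pathogen vacuoles, had 6.58, 6.31 and 5.70 in Lzhi arrays of A, B and C, against 6.74, 6.86, 6.44 and 6.48 in Dzhi arrays of A to D. In low affinity it had 6.44, 6.14, 6.13 and 6.39 in Lzlo arrays of A to D, against 6.80, 6.64, 6.11 and 6.44 in Dzlo arrays. The LZ array was the lower in 6 of 7 pairs, and the groups overlapped. LZ minus DZ was -0.33 ± 0.14 (SE, adjusted p = 1, limma), and -0.20 without Lzhi C. With the experiment as a replicate block the adjusted p was 0.279.

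The genes of MHC class I peptide supply had high signal in every array. Psmb9 and Psmb8, subunits of the immunoproteasome, averaged 12.4 ± 0.18 and 10.7 ± 0.27 in Lzhi (SD, n = 3), 12.3 ± 0.29 and 10.7 ± 0.13 in Lzlo, 12.1 ± 0.38 and 10.5 ± 0.38 in Dzhi, and 12.1 ± 0.22 and 10.6 ± 0.27 in Dzlo (SD, n = 4 each). Tap1, a subunit of the peptide transporter, had 7.87, 7.71 and 7.79 in Lzhi arrays of A, B and C, against 8.08, 7.66, 7.87 and 9.07 in Lzlo arrays of A to D. In the DZ Tap1 had 7.35, 7.38, 8.26 and 7.93 in Dzhi arrays of A to D, against 7.79, 7.23, 8.10 and 9.09 in Dzlo arrays. Only the low-affinity arrays of experiment D exceeded 8.26.

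**Figure D3:**
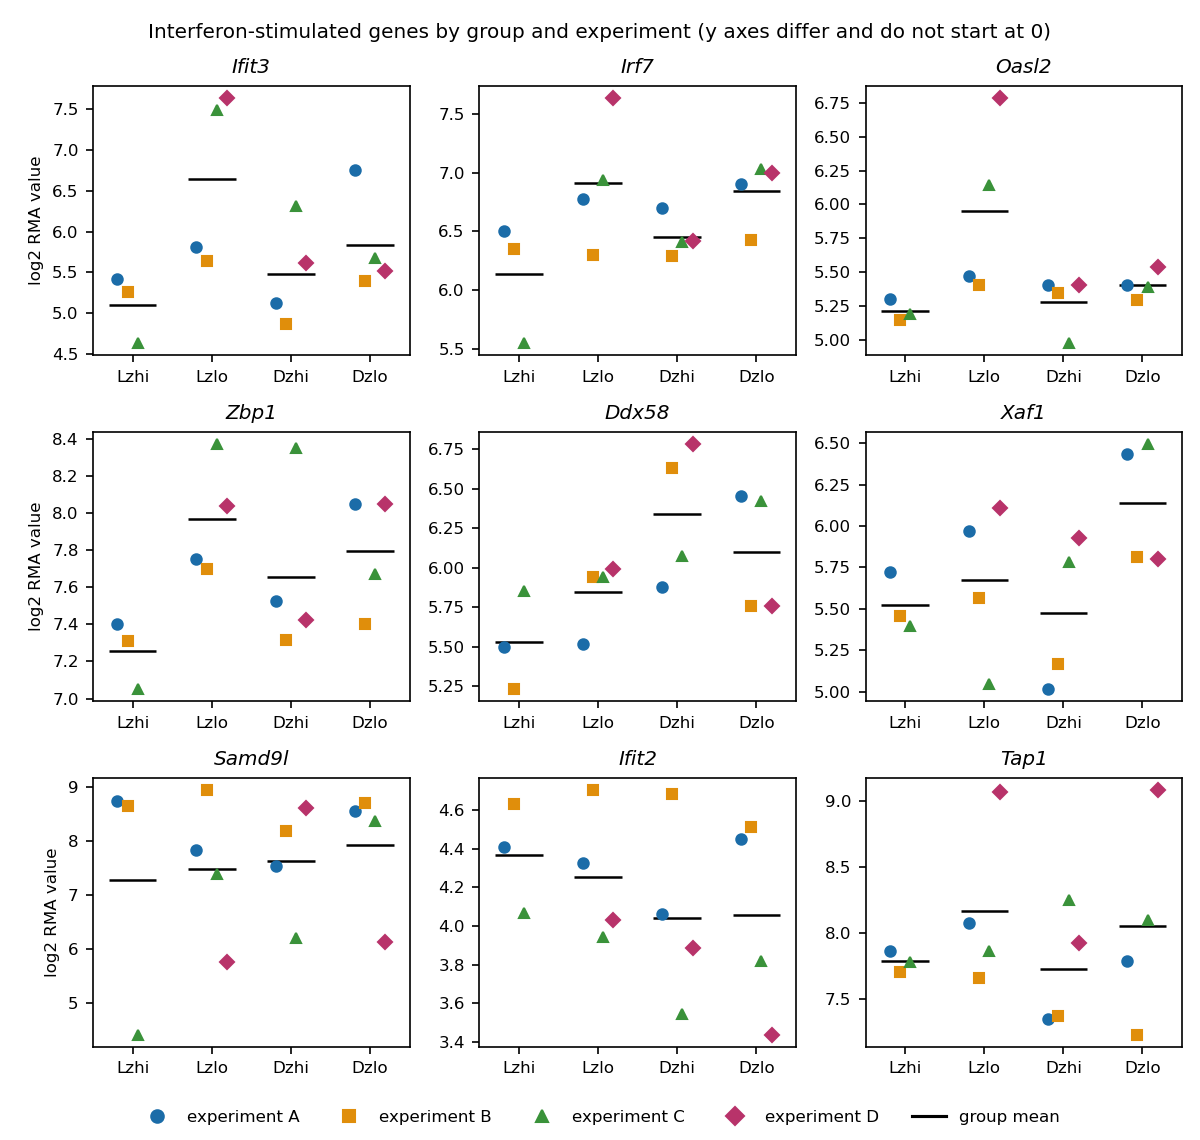
Log2 RMA values of 9 members are plotted by group, with colour and shape for the experiment and a bar for the group mean. Ifit3, Irf7 and Oasl2 peak in Lzlo D, Ddx58 has its lowest value of 5.23 in Lzhi B, Samd9l is at 4.42 in Lzhi C, Ifit2 is highest in experiment B in every group, and Tap1 is above 9 only in the low-affinity arrays of D.

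Between experiments, with the groups held constant, 1 of the 37 genes passed (moderated F of limma, adjusted p under 0.05), where 3.43% of all genes did. At an unadjusted p under 0.05 there were 9 members, where 23.4% of all genes were. Ifit2, which binds viral RNA and inhibits translation, was the gene that passed, with F = 14.6 and an adjusted p of 0.0259. Its mean signal was low, at 4.17, below the lower quartile of 4.70. Its arrays of experiments A, B and C had 4.41, 4.63 and 4.07 in Lzhi, and those of A to D had 4.33, 4.70, 3.94 and 4.03 in Lzlo. Ifit2 had 4.06, 4.68, 3.55 and 3.88 in Dzhi arrays of A to D, and 4.45, 4.51, 3.82 and 3.44 in Dzlo arrays. Experiment B was thus highest in each of the 4 groups, and C or D the lowest. Without Lzlo D and Dzlo D the adjusted p was 0.0181.

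The Ifit2 call rested on single arrays, since leaving out any of 8 arrays moved its adjusted p to between 0.0513 and 0.0774. These were Dzhi B, Dzlo B, Lzhi A, Lzhi B and each of the 4 Lzlo arrays. With the codes as written, which give experiment B 1 code for the LZ and another for the DZ, the adjusted p was 0.0888. Isg20 and Tap1 followed with an adjusted p of 0.0652 each (limma). For Isg20 it was 0.0427 without Lzlo D and Dzlo D, and for Tap1 it was 0.326 without them. Leaving out the Dzhi array of D gave 11 members that passed, in a fit where 19.8% of all genes did, and leaving out the Dzhi array of C gave 3, where 1.91% of all genes did. Without Lzlo D and Dzlo D there were 4, namely Ifit2, Isg20, Herc6 and Psmb8, where 6.59% of all genes passed.

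The spread over the arrays was wider among the members than the typical gene. The median range was 1.32 over the 37 genes and 0.86 over all genes. The members also had a higher mean signal, at a median of 6.44 against 5.78, and the ranges were not matched for signal. Of the variance of a member, a median of 22.5% lay between the 4 groups, 25.7% between experiments given the group and 45.9% in neither, while over all genes the medians were 14.3%, 31.8% and 48.7%. Ifit1 and Cmpk2 were the narrowest, with ranges wider than only 0.85% and 1.82% of all genes. Samd9l, Ifit3, Irf1, Ifi35 and Irf7 had the widest ranges, from 2.09 for Irf7 to 4.53 for Samd9l.

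Markers of other cell types moved with the array that held most of the highest values. In Lzlo D all 10 neutrophil markers, 8 of 11 T cell markers, 7 of 9 NK cell markers and 5 of 9 myeloid markers had their highest value of the 15 arrays. The mean of the neutrophil markers ranged from 4.96 to 6.58 over the Lzhi arrays and from 5.12 to 9.40 over the Lzlo arrays, and from 5.07 to 6.68 over the Dzhi arrays and from 5.22 to 7.88 over the Dzlo arrays. T cell markers averaged 6.67 in Lzlo D and NK cell markers 6.16, against at most 5.90 and 4.95 in the arrays other than the low-affinity ones of D. Markers of plasmacytoid dendritic cells, a main source of type I interferon, averaged 6.13 to 6.62 in Lzhi, 6.23 to 6.96 in Lzlo, 5.78 to 6.37 in Dzhi and 5.86 to 6.58 in Dzlo, with 3 of 5 highest in Lzlo D. Of the plasmacytoid dendritic cell markers, Siglech and Ccr9 lay below the median gene at 5.78, with means of 5.35 and 4.10. Cox6a2, Pacsin1 and Ly6d lay above it, at 6.4, 7.5 and 7.9, so the averages lean on these genes. The part of the other cell types in the members' values was not tested. Dzlo D, also with raised neutrophil markers, had a median of the members of 0.01, and Lzlo C, with Ifit3 at 7.48, had neutrophil markers at 6.58, T cell markers at 5.90 and myeloid markers at 6.60.

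**Figure D4:**
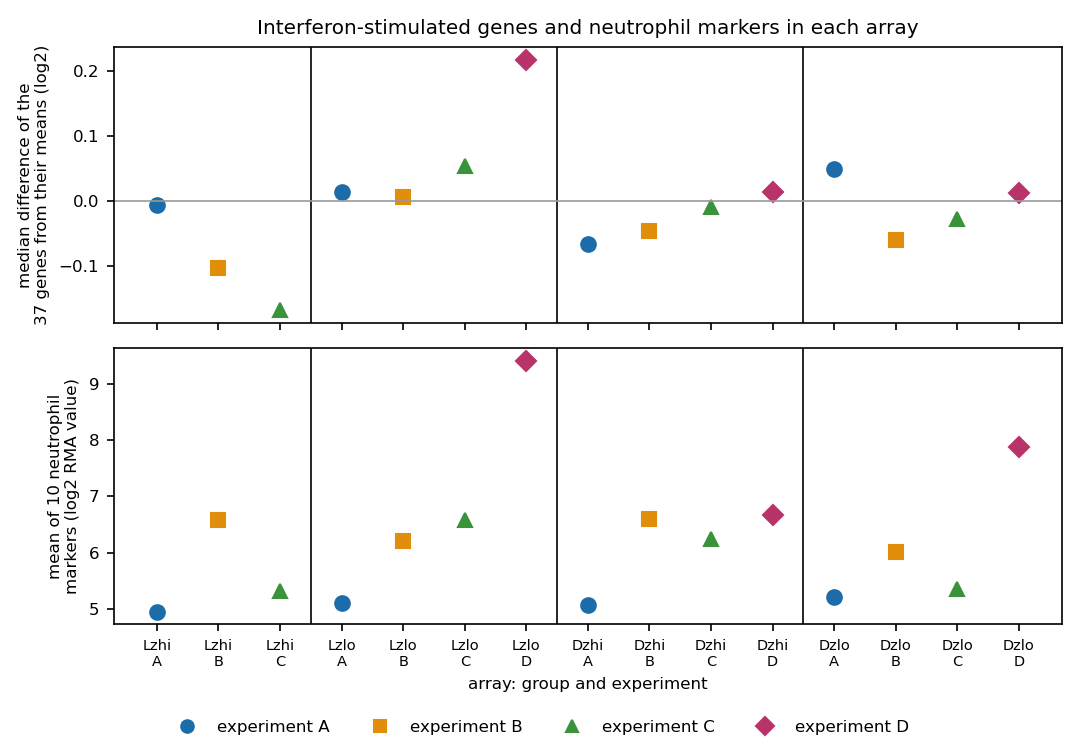
The upper panel gives for each array the median difference of the 37 genes from their own means, and the lower panel the mean log2 RMA value of 10 neutrophil markers, with arrays ordered by group and experiment. Lzlo D is highest in both, at 0.22 and 9.40, while Dzlo D is second for the markers, at 7.88, with a median of 0.01.

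Other genes of the pathway were read from lists that hold no member. Among 36 genes of interferon receptors and signalling, 1 passed between zones over both affinities, where 0.155% of all genes did, and it was higher in the LZ. This was Ifngr2, the signalling chain of the interferon gamma receptor, which had 8.10, 7.98 and 8.59 in Lzhi arrays of A, B and C, against 7.25, 7.42, 7.34 and 7.17 in Dzhi arrays of A to D. In low affinity it had 8.59, 8.11, 8.91 and 8.31 in Lzlo arrays of A to D, against 7.67, 7.44, 8.04 and 7.36 in Dzlo arrays. The zones did not overlap within either affinity, and the LZ array was the higher in 7 of 7 pairs. LZ minus DZ was 0.89 ± 0.14 (SE, adjusted p = 0.0232, limma), with an adjusted p of 0.0465 without Lzlo D and Dzlo D and 0.00309 with the experiment as a replicate block. It passed in 9 of the 15 fits that leave out 1 array, and without Lzhi A, Lzhi C, Lzlo A, Dzhi A, Dzlo A or Dzlo B the adjusted p was above 0.05, at most 0.0622.

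Ifngr1, the ligand-binding chain of that receptor, was higher in the LZ array in 7 of 7 pairs, at a difference of 0.68 ± 0.16 (SE, adjusted p = 0.157, limma). With the experiment as a replicate block its adjusted p was 0.0481, so this call holds only with the block. The block gave 3 of the 36 genes in all, where 90 of all 19938 genes passed in that fit. The third was Ptpn6, a phosphatase that restrains receptor signalling. Irf4, a transcription factor of plasma cell differentiation, differed by 0.74 ± 0.17 (adjusted p = 0.165). Ifnar1, of the type I receptor, overlapped between zones: it had 6.49, 6.25 and 6.62 in Lzhi arrays of A, B and C, against 6.54, 6.21, 6.64 and 6.62 in Dzhi arrays of A to D. In low affinity it had 6.68, 6.64, 7.12 and 6.53 in Lzlo arrays of A to D, against 6.52, 6.20, 6.76 and 6.55 in Dzlo arrays.

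**Figure D5:**
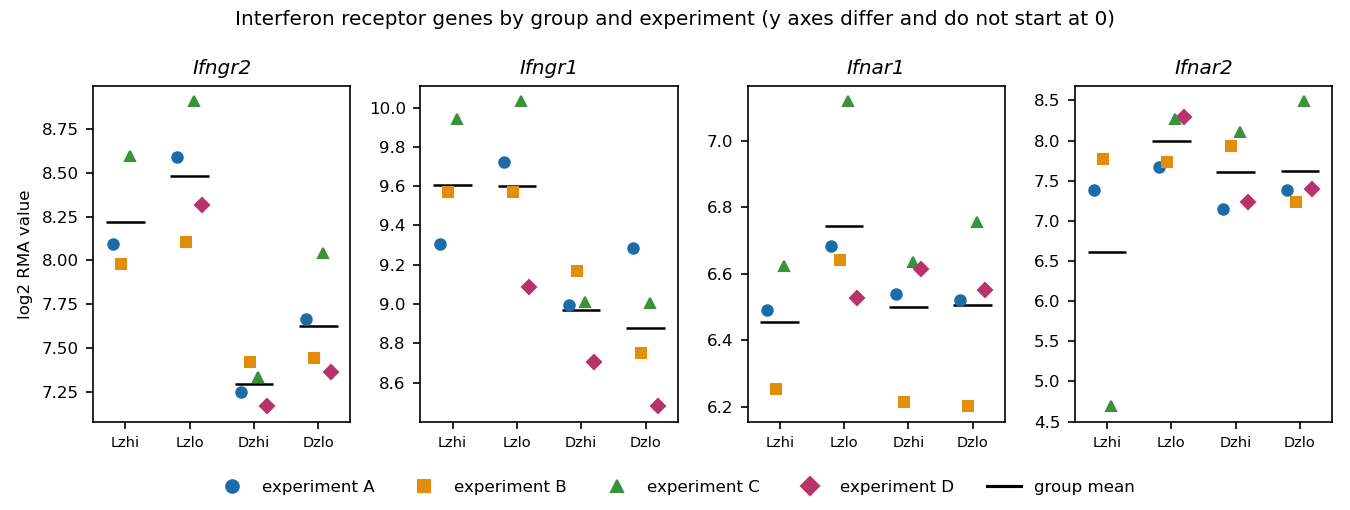
Log2 RMA values of the interferon receptor genes Ifngr2, Ifngr1, Ifnar1 and Ifnar2 are plotted by group, with colour and shape for the experiment and a bar for the group mean. All Lzhi and Lzlo arrays of Ifngr2 lie above those of Dzhi and Dzlo of the same affinity, while Ifnar1 overlaps and Ifnar2 has a single low value of 4.69 in Lzhi C.

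Of 74 other interferon-stimulated genes, 0 passed between zones and 7 had an unadjusted p under 0.05 (limma), where 4.38% of all genes did. Slfn2, a factor of lymphocyte quiescence, was higher in the LZ array in 7 of 7 pairs, at 1.37 ± 0.31 (SE, adjusted p = 0.142, and 0.0018 with the experiment as a replicate block). Ms4a4c, a membrane protein of the MS4A family, differed by 0.83 ± 0.17 (adjusted p = 0.107). None of 15 interferon genes passed between zones, and 0 of them had an unadjusted p under 0.05. None of 10 further genes of MHC class I presentation passed, with 3 at an unadjusted p under 0.05 against the same 4.38% of all genes, led by Tapbp at 0.64 ± 0.25 (SE, adjusted p = 0.913).

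Between experiments, 6 of the 74 other interferon-stimulated genes passed, where 3.43% of all genes did: Ly6e, Ifitm1, Slfn1, Slfn2, Parp10 and Ifitm2. Without Lzlo D and Dzlo D 10 passed, where 6.59% of all genes did, and Parp10 and Ifitm2 were not among them, the adjusted p of Parp10 being 0.112 (limma). Ly6e, a surface protein of lymphocytes, had the lowest adjusted p, at 0.0088, and passed in all 15 fits that leave out 1 array. It had 11.08, 10.95 and 12.18 in Lzhi arrays of A, B and C, and 11.25, 11.03, 12.26 and 12.12 in Lzlo arrays of A to D. In the DZ it had 11.03, 11.10, 12.16 and 11.39 in Dzhi arrays of A to D, and 11.26, 10.83, 12.30 and 12.18 in Dzlo arrays. Ly6e was thus high in every array of experiment C and in Lzlo D and Dzlo D.

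Ifitm1 and Ifitm2 encode membrane proteins that block viral entry. Ifitm1 had 10.2 in Lzlo D and 9.24 in Dzlo D, against 5.47 to 7.28 in the other 13 arrays, and Ifitm2 had 10.1 and 8.84, against 5.33 to 6.99. These are the arrays with the raised neutrophil markers, and the part of other cells in these values was not tested. Without them experiment D keeps only Dzhi D, which held the 7.28 of Ifitm1, while the arrays of A, B and C lay between 5.47 and 6.20. Ifitm2 had 6.57 in Dzhi D, within the 5.33 to 6.99 of the arrays of A, B and C. Of the signalling genes Unc93b1, which carries nucleic acid sensing receptors to endosomes, and Irf8, a factor of GC B cells and myeloid cells, passed between experiments, with adjusted p of 0.0422 and 0.0446 (limma). Leaving out 1 array, Unc93b1 passed in 4 of 15 fits and Irf8 in 2 of 15, and without Lzlo D and Dzlo D the adjusted p were 0.0397 and 0.0227. Of the MHC class I presentation genes Pdia3 and Calr, chaperones of the loading complex, passed with adjusted p of 0.0198 and 0.0433 (limma), and of the interferon genes none did. Pdia3 had 9.47 in Lzlo D and 9.43 in Dzlo D, against 10.2 to 11.1 in the other 13 arrays, and without them its adjusted p was 0.243. Calr passed without them, at an adjusted p of 0.0317, but in only 2 of the 15 fits that leave out 1 array.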

How the data were processed

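RNA of 15 sorted GC B cell samples was extracted with Trizol, amplified and labelled with NuGEN Ovation reagents and hybridised to arrays, per the labels' protocols. The deposited table holds log2 values of 28853 probe sets, which the authors made with RMA, per the submitters' processing notes, where genome build mm8 is also named. Which software ran it is not given in the sources used here. The method shrinks the differences of dim genes, and amplifying little RNA widens the spread between arrays. Without detection calls in the table, no gene is described as absent.

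The platform annotation gave 1 gene for 21789 probe sets, several for 1621 and none for 5443. For 999 genes with several probe sets only that of highest mean entered, leaving 19938 genes. The model, fitted by limma 3.58.1 under R 4.3.3, had a mean for each of the 4 groups over all arrays (11 residual degrees of freedom), with Benjamini-Hochberg adjustment over all genes. Differences between experiments were tested by a moderated F with the groups in the fit. No gene list was given a set test or a p of its own. The steps were tested on simulated data.

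The members, lists and tests were chosen with earlier results of these data known. Named members are the 3 with the lowest p in each comparison, any that passed, the 5 widest ranges, the 4 transcription factors, Isg15, Usp18 and the highest and lowest mean. Of the pathway lists they are genes that passed and the 3 lowest p in each list. Other members with values, among them Trim30a, Cmpk2, Ifih1, Psmb8 and Ifit1, and the receptor genes Ifnar1 and Ifnar2, were named after their values were seen.

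The code of experiment B ends in a different number for LZ and DZ arrays, and these were merged, which is an assumption. To check whether codes pair the arrays, deviations from group means were correlated between arrays of different groups. Same codes gave a mean of 0.288 (21 pairs, 16 of them above 0.1) and different codes -0.082 (63 pairs). Arrays of the same code thus tended to deviate together, though not every pair was above 0.1. The main fit leaves this pairing out, and the code served as a replicate block in an alternative fit only. With that block too, none of the 37 members passed between groups.

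Alternatives varied the normalization, the filter on dim genes, the probe set of a gene, the variance model, weights of arrays, blocks, the set of arrays and the threshold. Promoter sequences came from the RefSeq table of GRCm38.p6, whose build differs from that of the arrays. Figures were drawn with matplotlib 3.10.9.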

Additional observations from a re-analysis of the deposited data

Results flagged for a closer look

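In 6 of the 111 groups of 4 arrays examined among the members, 1 array lay far from the other 3, and chance alone sets such an array apart in about 1 in 20 groups. Ddx58 was 5.52 in Lzlo A, while the other 3 Lzlo arrays lay between 5.94 and 5.99. Mx2 was 3.83 in Lzlo A, against 4.24 to 4.30 in the other 3. Oasl2 was 4.98 in Dzhi C, against 5.35 to 5.40, and Oasl1 was 6.67 in the same array, where the other 3 Dzhi arrays all had 6.41. Those 3 Oasl1 values are identical, so any other value in Dzhi C would have stood apart. The Oasl2 and Mx2 groups also hold identical values, so the rate of 1 in 20 need not hold for these genes. Samd9l was 6.13 in Dzlo D, against 8.37 to 8.70 in the other Dzlo arrays. Dtx3l was 7.37 in Lzlo D, against 7.81 to 7.85 in the other Lzlo arrays. The groups of 3 Lzhi arrays are too small for this comparison, so the low Samd9l value of Lzhi C was not examined in it.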

How the results depend on the processing

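In the 7 comparisons between groups the count of members that passed (limma) was 0 under every alternative run, the experiment code as a replicate block included. The median of the members in Lzhi minus Dzhi, -0.10, was -0.0225 with array weights, -0.0377 with the replicate block, -0.0204 with the codes as written as the block and 0.0084 without Lzlo D and Lzhi C. Leaving out 1 array gave -0.1243 to 0.0084, the last without Lzhi C. The cause was not tested. Between experiments the 1 member that passed, beside 684 of all genes, became 4 at an adjusted p under 0.1 (2013 of all genes), 2 with quantile normalization (675), 0 with the codes as written (25), 4 without Lzlo D and Dzlo D (1313), 3 without all of D (1376) and 0 without Lzlo D and Lzhi C (24). Leaving out 1 array gave 0 to 11 members and 93 to 3940 of all genes. The other medians kept within the spread between experiments: for Lzhi minus Lzlo, leaving out 1 array gave -0.30 to -0.15 and the paired fit with the replicate block -0.17. Over both zones the median for affinity ran from -0.14 to -0.07 without 1 array, and that of LZ minus DZ over both affinities from -0.01 to 0.08, so its sign depended on Lzlo D. No result reversed among the named genes. Few arrays a group, unknown independence of the arrays and a group of 3 limit what could pass, and p-values here describe these arrays only. The array weights fit stopped before reaching its tolerance. Leaving out Lzlo D together with Lzhi C was chosen after seeing the data.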

Other observations

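Ifnar2, a chain of the type I interferon receptor, had 4.69 in Lzhi C, against 7.15 to 8.49 in the other 14 arrays, and Samd9l and Trim30a were also at their lowest there. In 7 of the 37 members, 3 or more arrays shared 1 identical log2 value, and for Ifih1 and Mx2 this held for 6 arrays each, at 4.42 and 4.24. For Oasl2 it held for 4 arrays at 5.40, and for Stat2, Oasl1, Irgm1 and Gbp3 for 3 arrays each. The spread of such genes is thus made by the remaining arrays.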
